A study of Mus musculus with 2 samples.

Results

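The 9 intermediate filament genes described here are Nes, Vim, Gfap, Des, Synm, Nefl, Nefm, Ina and Lmna. They were taken by name from the count tables, which together list 25814 genes. All 9 had counts in the brain library and 8 had counts in the lung library, where Nefl had none. Each library held Nes-GFP+ cells sorted from Nestin-GFP mice of about 6 weeks, labelled C57BL/6, from brain or from lung. In the methods, by contrast, wild-type animals are CD1 or a CD1/C3H mixture, to which transgenic lines were crossed, so the background of these mice is given in more than one way. Each library was 1 biological replicate, and whether it pooled animals is not given in the sources used here. GFP in this line is driven by Nestin regulatory elements, and the sort therefore selected cells for a reporter of the first gene of the list. The count tables hold the endogenous Nes gene and no row for the GFP transgene. The study asked whether lung holds cells that resemble the neural stem cells of the brain. There was 1 library for each tissue, so tissue and library cannot be told apart, and every interval below is an exact 95% interval that covers counting error only.

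Intermediate filaments are rope-like polymers that give a cell mechanical strength, and each cell type builds them from its own set of proteins. Nestin cannot form a filament alone and joins vimentin or desmin in a shared polymer, and it is widely used to mark neural stem and progenitor cells and growing vessels. Vimentin is the filament protein of mesenchymal and endothelial cells, GFAP of astrocytes and neural stem cells, and desmin of muscle and pericytes. Synemin is a large partner protein that is built into vimentin and desmin filaments. The neurofilament proteins (Nefl, Nefm) and alpha-internexin (Ina) belong to neurons, with alpha-internexin made early. Lamin A/C (Lmna) lies under the nuclear envelope of most differentiated cells.

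Nes lies on chromosome 3 (87971078 to 87980451, plus strand, build GRCm38), where Lmna also lies (88480147 to 88509956, minus strand). Vim is on chromosome 2 (13573927 to 13582826, plus), Gfap on chromosome 11 (102887336 to 102900912, minus), Des on chromosome 1 (75360329 to 75368579, plus) and Synm on chromosome 7 (67730160 to 67759742, minus). Ina is on chromosome 19 (47014698 to 47025327, plus) and overlaps Nt5c2 on the other strand. Nefl (68083863 to 68089095, plus) and Nefm (68082590 to 68124846, minus) overlap each other on chromosome 14. Synm overlaps Ttc23 and Gm45102, Des overlaps Gm15179 and Gfap overlaps Gm26668, all on the other strand. The strand setting used in counting is not given in the sources used here, so reads in these overlaps cannot be assigned with certainty.

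Promoter windows of 30 bases are shown for Nes, Vim and Des, on which the vessel-wall results turn, with a motif in capitals (RefSeq, GRCm38.p6, plus strand, 5′ to 3′). Distances are counted from RefSeq's start of each gene (87971093 for Nes, 13574311 for Vim and 75360292 for Des), which differs from the start of the gene span given above, and the Vim window lies within that span. The Nes window (chr3:87971013-87971042) ends 51 bases before the RefSeq start and holds 2 copies of CCGCCC. The Vim window (chr2:13574271-13574300) ends 11 bases before it and holds TATAA read on each strand, so that the copies overlap. The Des window (chr1:75360242-75360271) ends 21 bases before it and holds CAGCTG, which reads the same on both strands.
Nes: ctagggaCCGCCCcttttCCGCCCggccgg
Vim: aacagtgTTATAAaagcagcgcccttggcg
Des: acagagggatcctgCAGCTGtcaggggagg
Searched on both strands, CCGCCC stood in 32.7% of the 250-base upstream parts of 32851 promoters and in 8.51% of windows at the same place. The shares were 22.8% and 4.75% for TATAA, and 13% and 1.47% for CAGCTG. These matches are descriptions of sequence, and nothing about a factor was measured. A primer pair that the study lists for Nes sits at bases 2248 to 2267 and 2755 to 2774 of the 6126-base transcript Nes-201. It is shown as the study's own sequence for the endogenous gene.
Nestin_F: aggaccaggtgcttgagaga
Nestin_R: ttcgagagattcgagggaga
The reverse primer ends 3352 bases before the transcript's end, while the counts used here come from a 3′ library kit.

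The brain library had 4640 barcodes and 26221173 unique molecular identifiers (UMIs, each a captured transcript), and the lung library 5981 barcodes and 36816962 UMIs. The cell filter of the methods left 4151 brain and 5608 lung cells, with medians of 4209 and 5585 UMIs. Of the kept cells, 11 in each library had a barcode that the other library also held. Cells were placed in marker gates, where a cell needed UMIs of at least 3 markers of its class and at least 2 more than of any other class. No intermediate filament gene was among the markers. A gate took 3635 brain cells (87.6%) and 4503 lung cells (80.3%), and 17 gates held at least 30 cells. Levels are counts-per-million (CPM) of the UMIs summed over a gate, and they compare gates for 1 gene, not genes with each other. Gates are named after their markers. The astroglial gate does not separate astrocytes from quiescent neural stem cells. Several gates lay close to the threshold, with 28 of 36 activated progenitor cells, 25 of 41 lung smooth muscle cells and 206 of 337 adventitial fibroblast cells at the minimum, against 4 of 33 lung neural cells and 3 of 38 microglia. Where a count is 0, the limit given is that of 3 counts.

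Endogenous Nes, whose regulatory elements drive the reporter, was found in fewer brain cells than lung cells. Nes had 1263 UMIs in 775 of 4151 brain cells (18.7%, interval 17.5 to 19.9%) and 11369 UMIs in 3625 of 5608 lung cells (64.6%, 63.4 to 65.9%). With each cell thinned to 1000 UMIs, the shares were 6.05% of 3964 brain cells and 28.2% of 5487 lung cells. The level was 64.7 CPM (61.2 to 68.4) in brain and 357.5 CPM (351 to 364) in lung. Of the other genes, Vim stood at 477.5 CPM in brain and 2672 in lung, Des at 5.43 and 459.4, and Lmna at 28.0 and 350.5. Synm went the other way, at 38.1 CPM in brain and 9.31 in lung. Gfap (954 brain UMIs), Ina (680) and Nefm (79) were nearly confined to the brain library, with 3, 1 and 5 UMIs in lung.

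**Figure D1:**
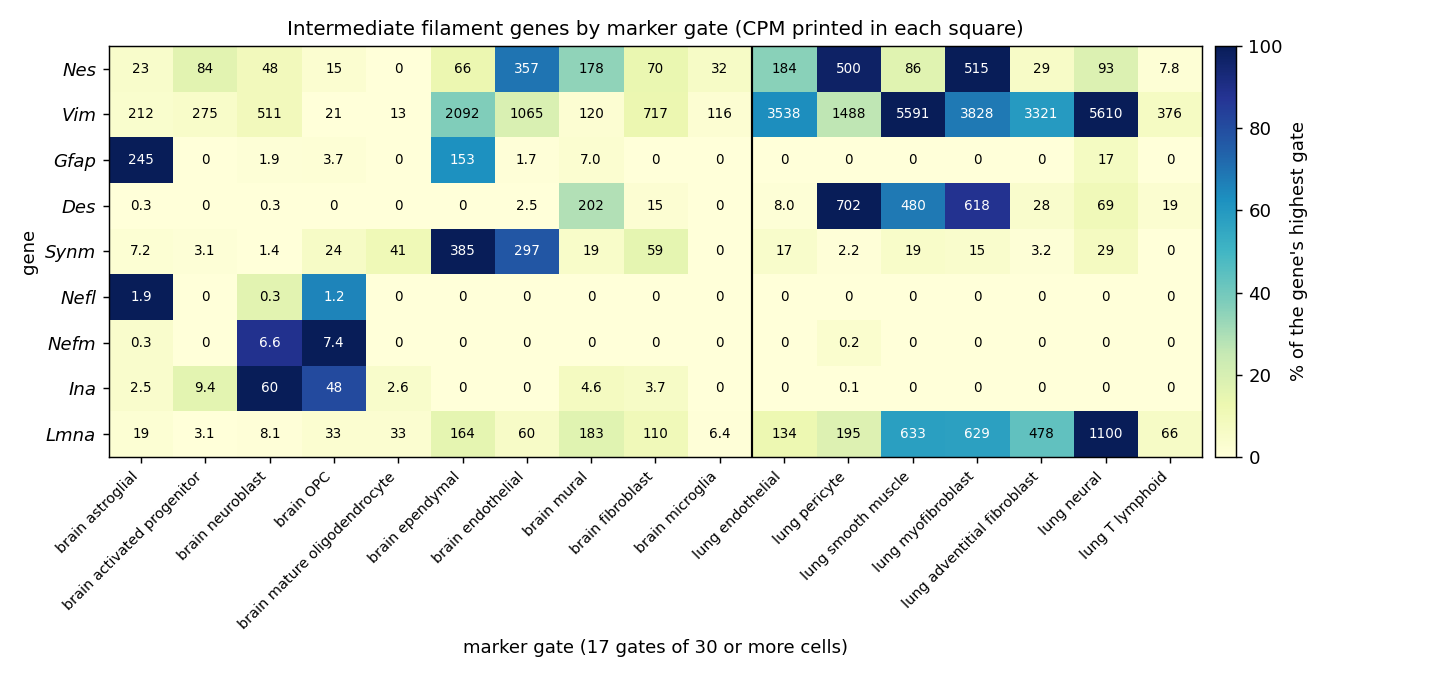
Levels (CPM of summed UMIs, printed in each square) of the 9 genes in the 17 marker gates with at least 30 cells, brain gates left of the black line and lung gates right of it. Shading gives each gene's level as a percentage of its own highest gate. The Nes row is darkest in the lung myofibroblast (515 CPM) and pericyte (500) gates, and the Nefl row is shaded although its highest gate rests on 6 UMIs.

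Within the sort, Nes was highest in the lung myofibroblast and pericyte gates and in the brain endothelial gate, while the other fibroblast gates and the neural gates of the brain were lower. The lung myofibroblast gate (908 cells) stood at 515 CPM (497 to 534) and the lung pericyte gate (2456 cells) at 499.6 (487 to 512), and these intervals overlapped. Their ratio, myofibroblast over pericyte, was 1.03 (0.986 to 1.08). The brain endothelial gate (310 cells) came next at 357 CPM (324 to 393). It did not overlap with the lung endothelial gate (590 cells) at 184 (170 to 199) below it, and the brain mural gate (158 cells), which covers pericytes, followed at 178.5 (141 to 223). The lung endothelial and brain mural intervals overlapped.

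Below these levels each gate overlapped with the next in order. The lung neural gate (33 cells, led by Schwann and neural crest markers such as Sox10 and Erbb3) had 16 Nes UMIs (92.6 CPM, 52.95 to 150.4), the lung smooth muscle gate 18 (86.3 CPM), the brain activated progenitor gate 27 (84.5 CPM), the brain fibroblast gate 19 (69.5 CPM) and the ependymal gate 36 (66.2 CPM). Of the 19 fibroblast UMIs, 9 came from 1 cell. The neuroblast gate (1981 cells) had 471 UMIs at 48.3 CPM (44.0 to 52.9). Microglia (5 UMIs, 32.1 CPM) and the lung adventitial fibroblast gate (80 UMIs, 28.8 CPM) came next. The astroglial gate (808 cells), where quiescent neural stem cells fall, had 72 UMIs in 53 cells at 22.7 CPM (17.7 to 28.6). The lowest were the oligodendrocyte progenitor (OPC) gate with 12 UMIs, the lung T lymphoid gate with 2 and the mature oligodendrocyte gate with 0 in 39 cells, for which 3 counts would be 7.72 CPM. The 22 cells of the lung matrix fibroblast gate, too few to be ranked, also had none.

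The gates also differed in how many cells carried a Nes UMI. At 1000 UMIs per cell, 39.1% of lung myofibroblast, 36.8% of lung pericyte, 27.2% of brain endothelial, 14.8% of lung endothelial and 12.7% of brain mural cells had one. The share was 4.43% (3.55 to 5.44%) in neuroblasts and 2.194% (1.28 to 3.49%) in astroglial cells. Gates of cells that are not known for nestin gave 1 of 38 microglia (2.63%, 0.0666 to 13.8%), 0 of 39 mature oligodendrocytes and 1 of 93 lung T lymphoid cells (1.08%) at the same depth. The astroglial and the neuroblast intervals each overlapped with those of all 3 gates, which rest on few cells. Unthinned, the shares were 6.56% in astroglial cells, 7.89% in microglia, 2.13% in T lymphoid cells and 0 in mature oligodendrocytes, at median depths of 3686, 3950.5, 1779.5 and 12207 UMIs. In CPM the astroglial interval overlapped with those of microglia (10.4 to 74.9) and T lymphoid cells (0.939 to 28.0). It lay above that of mature oligodendrocytes (0 to 9.497). The neuroblast interval (44.0 to 52.9) lay inside that of microglia and above those of T lymphoid cells and mature oligodendrocytes. The reference gates thus did not set 1 common background. In the lung pericyte gate the median cell had 2 Nes UMIs and the highest 14, and 266 cells (10.8%) had more than 5. In the myofibroblast gate the median was 3 and the highest 19.

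**Figure D2:**
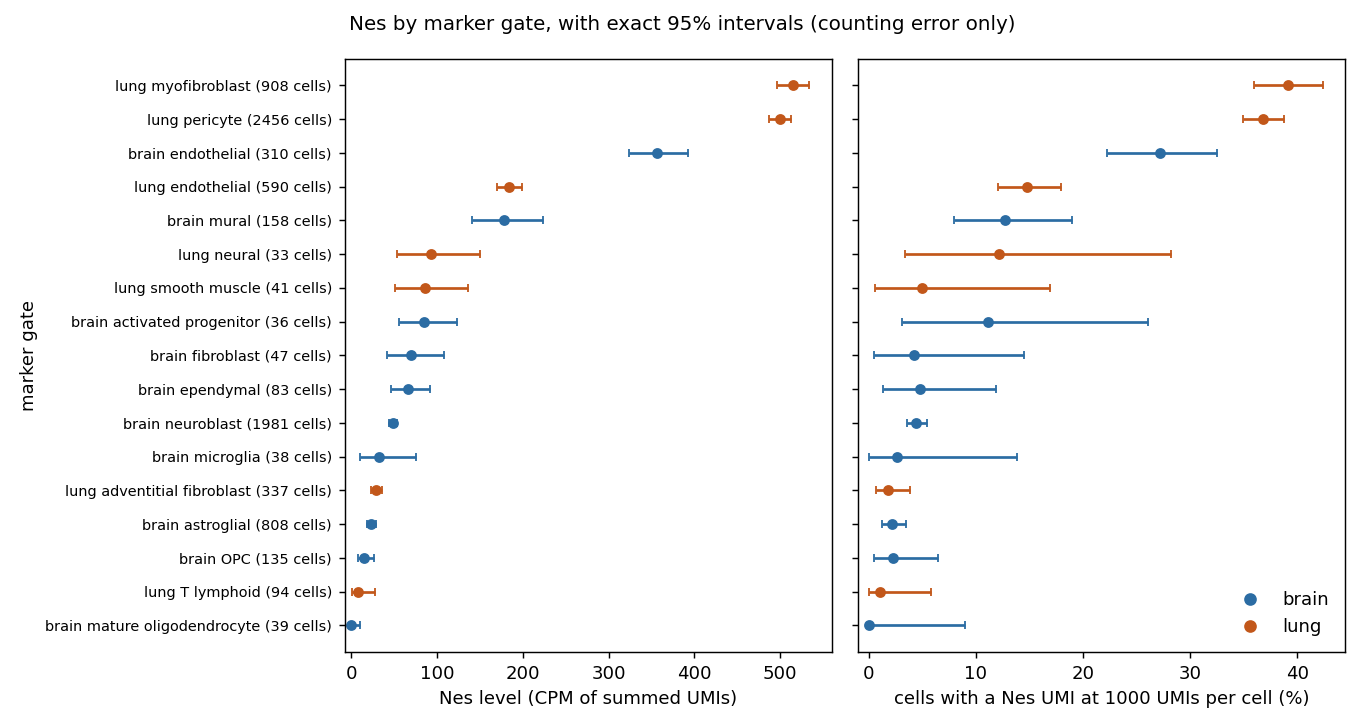
Nes in 17 marker gates, brain in blue and lung in orange, as CPM of summed UMIs (left) and as the percentage of cells with a Nes UMI at 1000 UMIs per cell (right). Bars are exact 95% intervals. Lung myofibroblast and pericyte gates stand at 515 and 500 CPM, and the brain astroglial gate at 22.7.

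Brain endothelial cells exceeded astroglial cells 15.7-fold in Nes (12.2 to 20.5) and 5.02-fold in Vim (4.57 to 5.53). Neuroblasts exceeded astroglial cells 2.13-fold in Nes (1.66 to 2.77). These folds are of the levels as counted, and the part of free RNA in the astroglial and neuroblast levels was not tested. Endothelial markers in the astroglial gate and astroglial markers in the endothelial gate both had a median of 0 per cell. Lung pericytes exceeded brain mural cells 2.80-fold in Nes (2.24 to 3.55). Between endothelial gates the order was the opposite, and lung stood at 0.515 times the brain level (0.454 to 0.585). Lung pericytes also exceeded lung endothelial cells 2.72-fold (2.50 to 2.96), while brain endothelial cells exceeded brain mural cells 2.0-fold (1.57 to 2.59). The mural gate thus stood below the endothelial gate in the brain library and above it in the lung library. The median brain mural cell carried 1 endothelial, 1 OPC and 1 fibroblast marker beside 7 of its own (Cspg4 is on both the mural and the OPC list), and what part these had in its Nes level was not tested.

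Vim, the gene with which nestin shares its filament, was found in nearly every lung mesenchymal and endothelial cell. The lung neural gate (5610 CPM, 5262 to 5975) and smooth muscle gate (5591, 5274 to 5921) were highest and overlapped. The myofibroblast gate followed at 3828 CPM, the lung endothelial gate at 3538 and the adventitial fibroblast gate at 3321. Among brain gates the ependymal gate was highest at 2092 CPM (1972 to 2217), with a UMI in 77 of 83 cells. Lung pericytes stood at 1488 CPM (1466 to 1509) and brain endothelial cells at 1065 (1007 to 1126). Brain fibroblasts followed at 717, neuroblasts at 511 (497 to 526), activated progenitors at 275 and astroglial cells at 212 (196 to 229). The median brain fibroblast cell carried 3 astroglial, 1 OPC, 1 mural and 1 endothelial marker beside 6 of its own. What part these had in the levels of that gate was not tested.

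Brain mural cells were low in Vim, at 52 UMIs or 120.5 CPM (90 to 158), in 37 of 158 cells. Microglia had 18 UMIs (115.5 CPM), which came from 4 of 38 cells with up to 10 in 1 cell. Lung pericytes exceeded brain mural cells 12.3-fold in Vim (9.41 to 16.5). Lung endothelial cells exceeded brain endothelial cells 3.32-fold (3.13 to 3.53). The oligodendrocyte gates were lowest, at 21.1 CPM in OPC (17 UMIs) and 12.9 in mature oligodendrocytes (5 UMIs). At 1000 UMIs per cell a Vim UMI was found in 92.3% of lung endothelial, 88.8% of myofibroblast, 67.5% of lung pericyte, 58.0% of brain endothelial, 27.0% of neuroblast and 11.7% of astroglial cells. The lung T lymphoid gate stood at 376 CPM, of which 34 of its 97 UMIs came from 1 cell.

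Nes and Vim did not keep the same order. The myofibroblast gate exceeded the pericyte gate 2.57-fold in Vim (2.52 to 2.62) with nearly equal Nes. The adventitial fibroblast gate had 2.23 times the Vim of pericytes (2.18 to 2.29) and 0.0577 times their Nes (0.0457 to 0.0719). The lung smooth muscle gate had 3.76 times the Vim and 0.173 times the Nes of pericytes. The median adventitial fibroblast cell carried 3 myofibroblast and 2 pericyte markers beside 5 of its own, and the median smooth muscle cell 2 of each beside 5 of its own. The median myofibroblast cell carried 2 smooth muscle, 1 pericyte and 1 adventitial fibroblast marker beside 5 of its own. Of the 908 myofibroblast cells, 334 were at the minimum of their gate. The part of these markers' cells in the Vim, Nes, Des and Lmna of these gates was not tested. Over the 17 gates the Pearson correlation of log2(CPM + 10) was 0.59 between Nes and Vim and 0.60 between Nes and Des. It was 0.73 for Vim with Lmna and for Des with Lmna. These values describe gates that share 2 libraries.

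Des, which encodes the filament protein of muscle and pericytes, was highest in mural and contractile gates. Lung pericytes stood at 702 CPM (687 to 717), myofibroblasts at 618 (598 to 639), lung smooth muscle cells at 479.5 (390 to 583) and brain mural cells at 202 (161.5 to 249), with no overlap between neighbours in this order. A Des UMI was found in 2120 of 2456 lung pericytes (86.3%) and 60 of 158 brain mural cells (38.0%). At 1000 UMIs per cell the shares were 46.5% and 14.6%. Lung pericytes exceeded brain mural cells 3.48-fold (2.82 to 4.35).

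Outside these gates Des was low. The lung T lymphoid gate, which should lack it, had 5 UMIs in 94 cells (19.4 CPM, 6.29 to 45.2). The lung endothelial gate had 27 UMIs (8.03 CPM, 5.30 to 11.7), and at 1000 UMIs per cell 2 of 587 cells had one against 5 of 93 T lymphoid cells, so it is not read as expression. The adventitial fibroblast gate had 78 UMIs in 24 of 337 cells (28.1 CPM), with up to 16 in 1 cell, a level inside the T lymphoid interval, and the lung neural gate had 12 UMIs in 7 cells (69.5 CPM). The astroglial, neuroblast and brain endothelial gates held 1, 3 and 3 UMIs.

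Synm, the partner protein of these filaments, had a different map from Des. It was highest in the ependymal gate at 385 CPM (334 to 440), with a UMI in 65 of 83 cells, and in the brain endothelial gate at 297 (266 to 329), with a UMI in 160 of 310 cells. All other gates lay at or below 58.5 CPM. Lung endothelial cells had 57 UMIs at 16.96 CPM (12.9 to 22.0), which was 0.0572 times the brain endothelial level (0.0424 to 0.0758). Lung pericytes had 27 UMIs in 2456 cells, or 2.17 CPM (1.43 to 3.16). Brain mural cells had 8 UMIs, or 18.5 CPM (8.004 to 36.5), so that lung stood at 0.117 times brain (0.0517 to 0.298). The summed endothelial list was 737 CPM in brain mural cells and 38.8 CPM in lung pericytes, and its part in this ratio was not tested. Microglia and lung T lymphoid cells had no Synm UMI. The lung pericyte gate thus ranked first of 17 for Des and was among the lowest gates for Synm. The myofibroblast gate had 88 Synm UMIs, at 15.4 CPM.

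The vessel gates allow the genes to be set against all others. In lung pericytes over brain mural cells, 13573 genes had at least 10 UMIs over both gates. Of these, 24.0% were at least 2-fold higher and 18.5% at least 2-fold lower. Of the 5 filament genes that could be compared (Nes, Vim, Des, Synm and Lmna), Nes, Vim and Des were higher, Synm was lower and Lmna was within 2-fold, at 1.06 times (0.850 to 1.35). The median log2 ratio was 1.48 for the 5 genes and -0.14 for all genes. In lung over brain endothelial cells (11782 genes), 15.7% of genes were higher and 13.0% lower. Vim and Lmna were higher there and Synm was lower. Des was also past 2-fold, but it rested on 27 and 3 UMIs, its interval (0.970 to 16.2) included equality, and its lung endothelial level did not exceed that of T lymphoid cells. The median log2 ratio was 1.14 for the 5 genes and 0.00 for all genes, but the first value counts Des. Of the other filament genes, Vim (3.32-fold) and Lmna (2.22-fold) lay above 1, and Nes (0.515 times) and Synm (0.0572 times) below.

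Within the lung, endothelial over pericyte cells (14177 genes), 15.2% of all genes were at least 2-fold higher and 20.2% lower. Vim (2.38-fold) and Synm (7.82-fold) were higher there, and Nes (0.368 times) and Des lower. Lmna was within 2-fold, at 0.688 times (0.621 to 0.761). Here the median log2 ratio was -0.54 for the 5 genes and -0.02 for all genes. Within the brain, endothelial over mural cells (10159 genes), 19.5% were higher and 17.0% lower. Nes (2.0-fold), Vim (8.84-fold) and Synm (16.0-fold) were higher, and Des and Lmna (0.330 times) lower. In this comparison the median log2 ratio was 0.99 for the 5 genes and -0.04 for all genes. Des had 27 UMIs in lung and 3 in brain endothelial cells, so no fold is given for it. Vim, Synm, Des and Lmna lay on the same side of 1 in both tissues, and Nes did not. With 5 genes a side, these counts are a description and mark nothing particular to the filament genes.

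**Figure D3:**
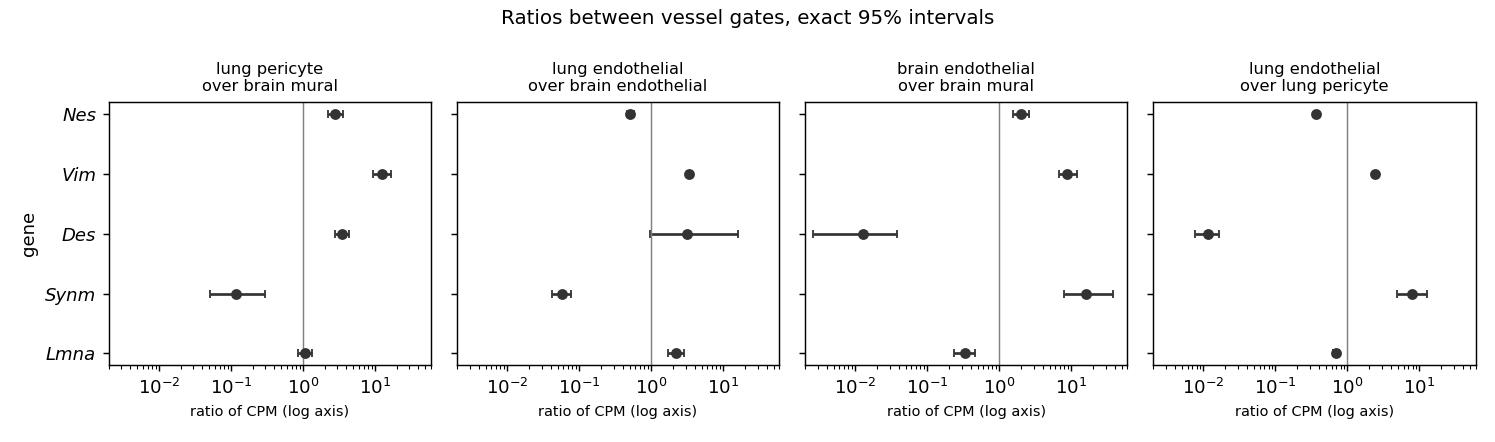
Ratios of CPM (log axis) between endothelial and mural or pericyte gates for the 5 filament genes with enough counts, with exact 95% intervals and a line at equal levels. Nes lies at 2.0 for brain endothelial over mural cells and at 0.368 for lung endothelial over pericyte cells, and Synm lies below the line in both panels that set lung over brain.

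Gfap, used to mark astrocytes and neural stem cells, was found in the astroglial and ependymal gates. The astroglial gate held 778 of the 954 brain UMIs at 245 CPM (228 to 263), in 226 of 808 cells (28.0%), with up to 45 UMIs in a cell. The ependymal gate held 83 UMIs at 153 CPM (122 to 189), in 25 of 83 cells. Its median cell also carried 3 astroglial markers, and what part these had in its Gfap was not tested. The neuroblast gate had 19 UMIs in 1981 cells (1.95 CPM, 1.17 to 3.04), which was 0.00795 times the astroglial level. The activated progenitor gate had none in 36 cells, where 3 counts would be 9.39 CPM.

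Astroglial cells were split by genes that mark quiescent stem cells or parenchymal astrocytes. The 41 cells with Thbs4 and neither Slc7a10 nor Cxcl14 had 617 CPM of Gfap (499 to 755), and the 534 cells with Slc7a10 or Cxcl14 and no Thbs4 had 146 (131 to 163). The ratio was 4.23 (3.33 to 5.32). Vim moved the same way, at 500 against 110 CPM, a ratio of 4.53 (3.46 to 5.87). Nes was 52.0 against 15.8 CPM, a ratio of 3.28 (1.32 to 7.18) that rests on 8 UMIs in the Thbs4 cells, and 3 of 40 thinned Thbs4 cells had a Nes UMI against 7 of 523. Thinned to 1000 UMIs, 35% of Thbs4 cells and 8.03% of Slc7a10 or Cxcl14 cells had a Gfap UMI. A Vim UMI was found in 37.5% and 5.54%. These subsets did not make up the whole gate of 808 cells. Of the gate's 778 Gfap UMIs the subsets held 95 and 332, and of its 673 Vim UMIs 77 and 251. The remaining UMIs came from cells with both kinds of marker or with none, whose levels were not summed.

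In the lung library Gfap had 3 UMIs in 3 cells, and all 3 cells fell in the 33-cell neural gate. This gave 17.4 CPM (3.58 to 50.8), or 0.0709 times the astroglial level (0.0146 to 0.208). The other lung gates had no Gfap UMI, and in the 2456 pericytes 3 counts would be 0.241 CPM. The lung neural gate was high in Vim and Lmna (1100 CPM, 949 to 1268) against astroglial cells, at 26.5-fold (24.0 to 29.3) and 58.2-fold (43.3 to 79.2). Its median cell carried 6 neural, 1 adventitial fibroblast and 1 matrix fibroblast marker, and what part these last had in its levels was not tested. Its Nes was 4.08 times the astroglial level (2.22 to 7.09), and 0.185 times the lung pericyte level (0.106 to 0.301). Its Nes interval (52.95 to 150.4 CPM) overlapped with those of the Thbs4 astroglial cells (22.4 to 102.4) and the activated progenitors (55.7 to 122.9).

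Of the neuronal filament genes, Ina and Nefm had most of their UMIs in neuroblasts and OPC. Ina was found at 59.9 CPM (55.1 to 64.9) in neuroblasts, with 584 UMIs in 406 of 1981 cells (20.5%), and at 48.3 CPM (34.4 to 66.0) in OPC, with 39 UMIs in 28 of 135 cells. These intervals overlapped. Neuroblasts exceeded astroglial cells 23.8-fold (12.0 to 55.3), the latter with 8 UMIs, and 45.3-fold where a gate needed a lead of 3 markers. Of the 135 OPC cells, 87 were at the minimum of their gate, and the median cell carried 1 neuroblast, 1 astroglial and 1 mural marker.

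Nefm had 64 UMIs in neuroblasts (6.56 CPM, 5.05 to 8.38) and 6 in OPC (7.43 CPM, 2.73 to 16.2). Nefl had 11 UMIs in 8 of 4151 brain cells, 6 of them in the astroglial gate, which is too few to order the gates. In lung, Ina had 1 UMI, Nefm 5 UMIs in 4 cells and Nefl none. No UMI of the 3 genes fell in the lung neural gate, where 3 counts would be 17.4 CPM.

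Lmna, which encodes the A-type lamins, was highest in the lung neural gate (1100 CPM). The lung smooth muscle (633, 529.5 to 750.5) and myofibroblast gates (629, 609 to 650) followed and overlapped, and the adventitial fibroblast gate stood at 478 (452 to 504). Lung pericytes at 195 (187 to 203), brain mural cells at 183 (145 to 228) and ependymal cells at 164 (131.5 to 201.5) overlapped in turn. The neural gates of the brain were low, with 33.5 CPM in OPC, 18.9 (14.4 to 24.3) in astroglial cells, 8.10 (6.41 to 10.1) in neuroblasts and 1 UMI in 36 activated progenitors. Lung endothelial cells exceeded brain endothelial cells 2.22-fold (1.72 to 2.89).

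Lmnb1, a B-type lamin gene on a list of related genes, differed from Lmna in the progenitor gates of the brain. Lmnb1 was highest in activated progenitors at 532 CPM (455 to 618), 17.1-fold above astroglial cells (13.2 to 22.1), while Lmna there was 0.166 times the astroglial level (0.00412 to 0.959), on 1 UMI. Of the 36 activated progenitors 24 were cycling (UMIs of at least 3 of 6 proliferation genes), with Lmnb1 at 594 CPM (495 to 706). The other 12 stood at 404 CPM (291 to 546). The marker list of this gate includes the DNA replication genes Mcm2 and Mcm5. Its median cell carried 2 astroglial and 1.5 neuroblast markers beside 5 of its own. What part the choice of markers or these other markers had in its lamin levels was not tested. Neuroblasts exceeded astroglial cells 13.2-fold in Lmnb1 (10.8 to 16.3) and stood at 0.429 times their level in Lmna (0.303 to 0.610). Ependymal cells differed the other way, at 8.67 times the astroglial Lmna (6.18 to 12.2) and 1.06 times the Lmnb1 (0.605 to 1.77).

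Cells were also compared by proliferation, where a cycling cell had UMIs of at least 3 of the 6 genes Mki67, Top2a, Cdk1, Birc5, Cenpf and Nusap1. In the neuroblast gate, 343 cycling cells exceeded 1638 others 1.91-fold in Nes (1.58 to 2.30), 1.79-fold in Vim (1.69 to 1.89), 2.28-fold in Lmna (1.42 to 3.63) and 3.57-fold in Lmnb1 (3.35 to 3.80). Ina was lower, at 0.205 times (0.147 to 0.280), or 15.8 against 76.9 CPM. Nefm, with 17 and 47 UMIs, was at 0.935 times (0.503 to 1.66), an interval that includes equality. Cycling neuroblasts were deeper, at a median of 8266 against 4143.5 UMIs, and carried more of the activated progenitor list, at 389.5 against 95.1 CPM summed. The summed neuroblast list was lower in them, at 6009 against 9197 CPM. What part these had in the ratios was not tested.

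In lung pericytes the pattern differed for Nes. The 167 cycling cells stood at 463 CPM and the 2289 others at 503, a ratio of 0.920 whose interval (0.837 to 1.01) includes equality. Vim was 1.42-fold higher in the cycling cells (1.36 to 1.48) and Des was at 0.525 times (0.474 to 0.581). Lmna was 3.51-fold (3.19 to 3.85) and Lmnb1 15.2-fold higher (13.3 to 17.4). The summed pericyte list was also lower in the cycling cells, at 7714 against 10838 CPM, and its part in these ratios was not tested.

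**Figure D4:**
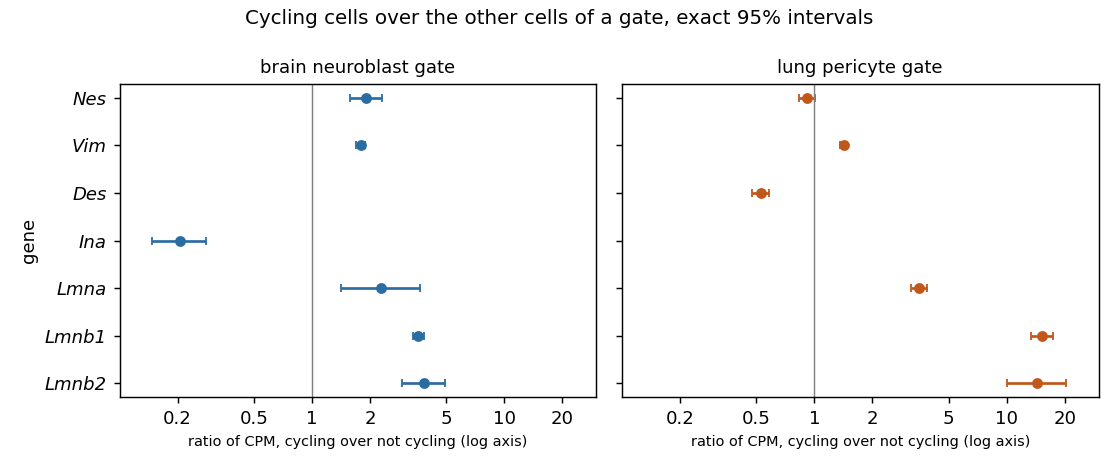
Ratio of CPM (log axis), cycling over other cells, in the brain neuroblast and lung pericyte gates, with exact 95% intervals and a line at equal levels; genes with fewer than 10 UMIs on either side are left out. Nes lies at 1.91 in neuroblasts and at 0.920 in pericytes, and Ina at 0.205.

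Co-detection with Nes was examined in cells thinned to 1000 UMIs, as the cells with both genes over the number that the separate shares would give. Thinning was needed because cells with Nes were deeper, with a median of 5428.5 against 3176 UMIs in lung pericytes. In that gate, 615 of 2425 cells had both Nes and Vim where 602.8 would be expected, a ratio of 1.02 (0.974 to 1.07). For Des the numbers were 411 and 415.4 (0.989, 0.918 to 1.06), and for Lmna 133 and 131.5 (1.01, 0.857 to 1.18). Over 3473 genes found in at least 5% of these cells, the median ratio was 1.01 and 90% of genes lay between the 5th percentile of 0.861 and the 95th of 1.14. The filament genes thus stood inside the range of all genes. At full depth, 1766 of 2456 pericytes (71.9%) had UMIs of Nes, Vim and Des together, and 66 (2.69%) had none of them.

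The other gates gave ratios whose intervals included 1, apart from Ina in neuroblasts. In myofibroblasts the ratios were 1.01 for Vim, 0.980 for Des and 0.965 for Lmna, and 630 of 908 cells (69.4%) had all of Nes, Vim and Des at full depth. In brain endothelial cells the ratio was 0.905 for Vim (0.709 to 1.10), 0.934 for Synm (0.577 to 1.38) and 0.702 for Lmna (0.193 to 1.73), against a range of 0.526 to 1.5 over all genes. At full depth 99 of 310 brain endothelial cells (31.9%) had Nes, Vim and Synm. In lung endothelial cells the ratio was 1.02 for Vim (0.943 to 1.06) and 1.22 for Lmna (0.624 to 2.07). In brain mural cells 20 of 157 thinned cells had Nes, which is too few for a reading.

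Neuroblasts showed the largest departure, for Ina. None of the 85 thinned neuroblasts with Nes had an Ina UMI, where 5.22 would be expected, and 6.43% of the others had one. At 2000 UMIs per cell, however, 14 of 137 Nes cells had Ina where 16.1 would be expected (0.869, 0.485 to 1.41), so the count of 0 did not hold at greater depth. At full depth 15.3% of 346 Nes cells and 21.6% of the others had Ina (0.747, 0.570 to 0.954). In neuroblasts that were not cycling the full-depth ratio was 0.836 (0.616 to 1.10). For Nes and Vim in neuroblasts the thinned ratio was 0.958 (0.629 to 1.35).

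**Figure D5:**
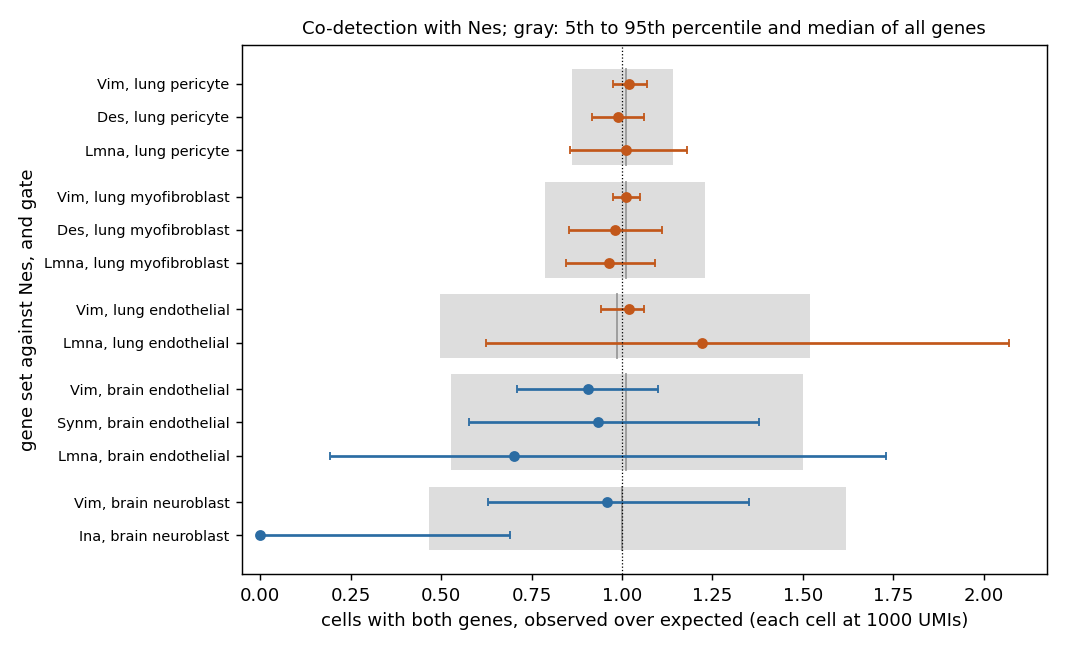
Cells with Nes and a second filament gene, observed over expected, each cell thinned to 1000 UMIs, with exact 95% intervals. Gray bands span the 5th to 95th percentile of all genes found in at least 5% of the gate's cells, with their median as a line. All points lie inside their band except Ina in brain neuroblasts at 0.

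A further 19 intermediate filament genes were looked at in the same 17 gates. Of these, 9 reached 20 CPM in a gate and 10 did not. The ependymal gate was the highest for the keratins Krt8 (38.6 CPM), Krt10 (62.6), Krt15 (82.8) and Krt18 (121, 93.9 to 154.5), which are filament proteins of epithelia. Its intervals lay apart from the next gate for Krt15 and Krt18, and overlapped for Krt8 and Krt10. Krt10 reached 20 CPM in 13 of the 17 gates, while Krt8, Krt15 and Krt18 each did so in 1. Activated progenitors were highest for Lmnb1 (532) and, with overlap, Lmnb2 (68.8). Bfsp2, known as a lens filament gene, was highest in OPC at 73.1 CPM (55.6 to 94.3), with 271 UMIs in the brain library and 4 in the lung library. Iffo1 was highest in mature oligodendrocytes (100.4 CPM, 71.4 to 137) and Iffo2 in the lung neural gate (63.7), and for Bfsp2, Iffo1 and Iffo2 the interval overlapped with that of the next gate. The neuronal genes Prph and Nefh did not reach 20 CPM in any gate.

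Of 9 genes for linkers and nuclear envelope partners, 7 reached 20 CPM in a gate, and the desmosome linkers Dsp and Ppl did not. Plec, which encodes plectin and ties filaments to the cell surface, was highest in lung endothelial cells (408.5 CPM, 387 to 431). It was 3.96-fold higher there than in lung pericytes (3.66 to 4.27), and 7.99-fold higher in brain endothelial than mural cells (4.69 to 14.8). Dst was highest in the lung neural gate (949.5 CPM) and Macf1 in the astroglial gate (1125). Lbr was highest in lung T lymphoid cells (209). Emd stood at 110 CPM in lung smooth muscle cells (69.9 to 165.5), which overlapped with activated progenitors at 103 (71.1 to 145).

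Genes with the most similar profiles over the 17 gates were sought among 11831 others, by Pearson correlation of log2(CPM + 10). For Nes these were Amotl1 (0.883), Btbd7, Arf2, Tpm4 and Ppp1r2 (0.853). For Vim they were S100a11 (0.882), S100a10, Cyb5r3, Parva and Anxa1 (0.831). For Gfap they were Plcd4 (0.967), Phkg1, 1700084C01Rik and Aqp4 (0.950), of which Aqp4 was a gate marker. For Des they were Pde5a (0.925), Tbx2, Ror1, Myl9 and Hspb2 (0.905). The 17 points share 2 libraries, and the values are descriptions.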

How the data were processed

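Nes-GFP+ cells of 1 brain and 1 lung sample were profiled with a Chromium 3′ v3 kit. The deposited values are raw UMI counts per gene and barcode, which the authors did not normalize. The submitters' processing notes name bcl2fastq 2.19.1.403, UMI-tools 1.0.0, STAR 2.7.1a, Subread featureCounts 1.6.4 and build mm10. The annotation version, the strand setting and the rule that chose barcodes are not given in the sources used here. The deposited tables held 4640 brain and 5981 lung barcodes, the same numbers of cells that the paper gives for its maps. Some of these barcodes lay outside the stated filter. Cells with over 200 and under 4000 genes and under 40% mitochondrial counts were kept here, 4151 of brain and 5608 of lung.

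Markers were found for 73 of 74 brain and 68 of 68 lung list entries (Lhfpl3 was not used here). Doublets were kept. Ratios carry an exact conditional binomial interval, CPM an exact Poisson interval and shares a Clopper-Pearson interval, all at 95%. The ratio interval was checked on simulated counts. Cells under 1000 UMIs were left out of thinned shares (187 brain, 121 lung), and each cell was drawn once. With 1 library per group no test was run. The genes named are the 9 of the list, listed filament genes that reached 20 CPM in a gate, listed partners and the 5 most alike genes of Nes, Vim, Gfap and Des, of which 1 is not reported here. Genes, lists and gates were chosen with earlier results of these data known. Coordinates are from GENCODE vM21 and promoters from RefSeq. Python 3.11.15, numpy 2.4.6, scipy 1.17.1, pandas 2.3.3 and scanpy 1.11.5 were used. Alternatives changed the gene and mitochondrial limits, the gate rules, doublets, cell weights and thinning depth.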

Additional observations from a re-analysis of the deposited data

Results flagged for a closer look

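The Nes ratio of the endothelial gate over the mural or pericyte gate lay on opposite sides of 1 in the 2 tissues. It was 2.0 in brain (1.57 to 2.59) and 0.368 in lung (0.338 to 0.400). With 1 library per tissue the difference was not tested between animals, and tissue and library cannot be told apart.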

How the results depend on the processing

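In all, 82 values were recomputed under the alternatives, for a chosen set of ratios. The set held Nes in lung pericytes over lung endothelial and brain mural cells, and Des and Synm over brain mural cells. It also held Nes and Vim in brain endothelial over astroglial cells, Ina in neuroblasts over astroglial cells, and Gfap in the astroglial split. Lmna in lung over brain endothelial cells and the co-detection ratios named below completed it. Other ratios, among them Nes in brain endothelial over mural cells and the cycling ratios, were not recomputed. In the set no ratio of levels changed direction, 76 values stayed within the counting interval of the reported value and 6 left it. Without the upper gene limit, Nes in lung pericytes over endothelial cells was 2.39-fold, below its interval (2.50 to 2.96), and co-detection of Nes and Vim in brain endothelial cells was 1.19. The same co-detection was 1.10 with no thinning, so it crossed 1 from its reported 0.905. Co-detection in lung pericytes also crossed 1 inside its interval, for Vim (0.991) and Des (1.02) without the upper gene limit and for Des (1.04) with no thinning or without Scrublet's doublets. The other 3 concern Nes and Ina in neuroblasts, tried after seeing the data, where the ratio moved from 0 to 0.869 at 2000 UMIs, 0.747 with no thinning and 0.836 with no thinning in cells that were not cycling. The cause was not tested. Scrublet marked 44 of 4151 brain cells (1.06%) and 74 of 5608 lung cells (1.32%). No paired analysis was possible because each group held 1 sample. With 1 library per tissue no replicate could be left out, and the spread between animals is unknown. Depth limits the ranked gates of 30 to 50 cells, where 1 UMI is worth 2.57 to 6.42 CPM.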

Other observations

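Several keratin genes of the lung library lay almost wholly outside the gates. Krt17 had 1328 UMIs in 69 cells, of which 1304 UMIs were in cells of no gate, and Krt5 had 632 UMIs in 52 cells, of which 619 were in no gate. Chosen after these values were seen, 41 of 5608 lung cells had UMIs of at least 3 of the 5 keratins Krt5, Krt14, Krt17, Krt8 and Krt18, and 40 of the 41 were in no gate. These cells had a median of 9059 UMIs. The lung epithelium genes Sftpc, Sftpb and Nkx2-1 had no UMI in them, while Epcam had 355 UMIs in 39 cells, Trp63 89 in 29 cells, Ccl21a 3663 in 39 cells and Foxn1, a transcription factor known from thymic epithelium, 27 in 13 cells. Nes had 6 UMIs in 4 of the cells (17.9 CPM, 6.56 to 38.9), Vim 282 UMIs (840 CPM, 745 to 944), Synm 39 UMIs (116 CPM, 82.6 to 159) and Des 20 UMIs (59.6 CPM). Their Synm level exceeded those of all 7 lung gates of at least 30 cells, the highest of which was 28.95 CPM in the neural gate. Whether these cells and the 94 cells of the lung T lymphoid gate came from lung tissue itself was not tested.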
